A study of Mus musculus with 12 samples.

Results

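The genes described here are receptors for extracellular nucleotides, UDP-sugars and adenosine, with Entpd1, which encodes the ATP-splitting surface enzyme CD39. The 10 genes named were P2ry14, P2ry6, P2ry10, P2ry12, P2ry13, P2rx4, P2rx7, Adora2a, Adora2b and Entpd1. Of these, 8 were measured among 19938 genes, each by 1 probe set, and the adenosine receptors Adora2a and Adora2b were not analysed here. P2ry14 was chosen by its intensity, which was much lower in lymph node than in spleen, so its values in that comparison are a description without a test. The other members were named with it as genes of the same signalling system, with earlier results of these data known.

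Type 1 conventional dendritic cells (cDC1), which take up dead cells and present their antigens to CD8 T cells, were sorted from unimmunised C57BL/6 mice, and their RNA was hybridised to Affymetrix arrays. The 4 groups of 3 arrays were migratory cDC1 of skin-draining lymph nodes labelled Xcr1Cre+, migratory lymph node cDC1 labelled Xcr1++, spleen cDC1 labelled Xcr1Cre+, and spleen cDC1 labelled Xcr1++. Mice of all groups carried CD40fl/fl, a Cd40 gene flanked by loxP sites. Mice labelled Xcr1Cre+ also carried 1 Xcr1-Cre allele, meant to remove Cd40 from cDC1, and those labelled Xcr1++ carried none. The sort took cells that were B220-, XCR1+, Sirpa- and high in MHC class II, with intermediate CD11c in lymph node and high CD11c in spleen. Sorts therefore differed between tissues in more than the organ, and XCR1 itself was part of the gate. Neither an age nor whether each replicate was a mouse of its own is given in the labels, and the p-values reflect the spread among these arrays alone, which may be technical.

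ATP, UTP and UDP-sugars leave stressed, dying or activated cells and act on neighbours through P2X channels, which open on ATP binding, and through P2Y receptors, which couple to G proteins. CD39 cuts ATP and ADP to AMP, CD73 (Nt5e) cuts AMP to adenosine, and adenosine acts on its own receptors, 2 of which raise cyclic AMP. In dendritic cells these signals are known to bear on migration, inflammasome activation and the priming or restraint of T cells.

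Background on each array was taken as the 95th percentile of 1027 olfactory receptor genes, which lay between 49.9 and 63.3 in intensity. Sorted cells from both tissues carried cDC1 genes: the transcription factor gene Irf8 averaged 4028 (Xcr1Cre+) and 4354 (Xcr1++) in lymph node, against 5175 and 4637 in spleen. Of 11 cDC1 markers, 7 were lower and 1 was higher in lymph node under both labels, Xcr1 among the lower ones (averages of 242 and 250.5 in lymph node against 2913 and 3250.5 in spleen), while 8 of 9 migratory dendritic cell markers were higher. Cd40 did not follow the labels on every array. It was lower on Xcr1Cre+ arrays than on Xcr1++ arrays of the same number for replicates 1 and 2, and higher for replicate 3, in both tissues. In lymph node it read 1427, 1388 and 3358 on Xcr1Cre+ arrays and 2138, 2777 and 1542 on Xcr1++ arrays. The positions of its probes are not known here and may lie outside the deleted part. Whether the labels of the replicate 3 arrays were exchanged was not tested. Comparisons between genotypes are therefore comparisons between arrays labelled Xcr1Cre+ and arrays labelled Xcr1++. Tissue separated the arrays along a first principal component with 79.5% of the variance. Along the second (11.2%), all replicate 1 arrays lay away from the others.

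Lymph node cDC1 carried less mRNA of every member that either tissue showed above background: P2ry14, P2ry6, P2ry10, P2rx4, P2rx7 and Entpd1. Apart from P2ry14, which was chosen for its fall, the measured log2 difference was largest for CD39 and smallest for P2ry10 and P2rx4. P2ry6 was below background on 5 of 6 lymph node arrays, so its place in this order is not exact. P2ry12 and P2ry13 lay below background on all 12 arrays. In bulk samples such as these, fewer cells carrying a transcript and less transcript per cell cannot be told apart.

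**Figure D1:**
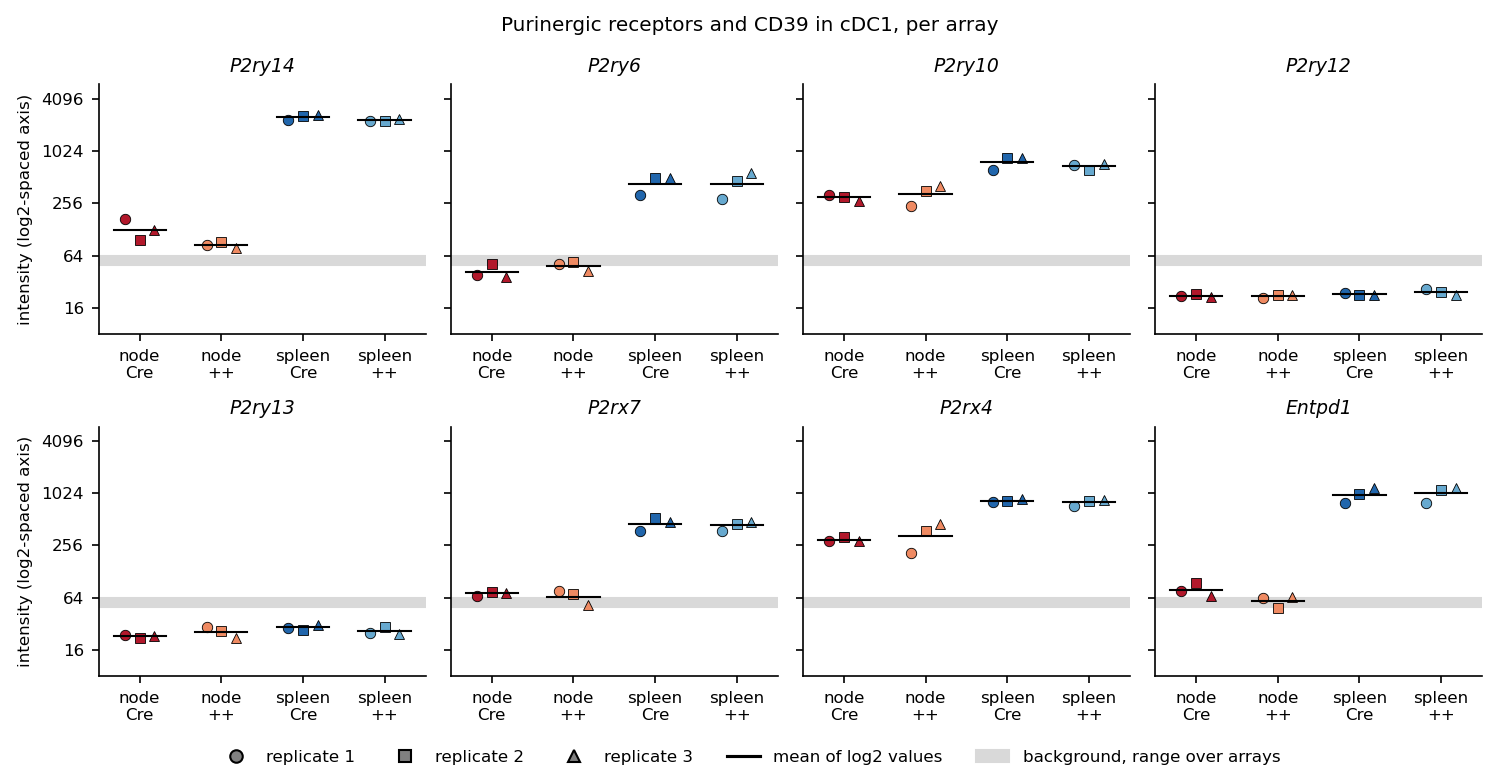
Intensity (log2-spaced vertical axis) of the 8 measured members on each of the 12 arrays, by group (node, skin-draining lymph node; Cre, labelled Xcr1Cre+; ++, labelled Xcr1++); symbols are replicate numbers, lines the mean of log2 values, and the grey band the range of background over arrays (49.9 to 63.3). In 6 panels every lymph node array lies below every spleen array, while P2ry12 and P2ry13 lie under the grey band throughout.

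P2ry14 encodes a Gi-coupled receptor for UDP-glucose and other UDP-sugars. Its intensity was 168, 96.4 and 125 in lymph node cDC1 labelled Xcr1Cre+, against 2364, 2621 and 2687 in spleen cDC1 with that label. Under the label Xcr1++ it was 85.7, 92.2 and 78.9 in lymph node, against 2294, 2299.6 and 2386 in spleen. The groups did not overlap, as for 18.7% (Xcr1Cre+) and 17.3% (Xcr1++) of all genes in the lower direction, and the lymph node arrays still read above background. The log2 difference was -4.34 for Xcr1Cre+ and -4.77 for Xcr1++ (SE 0.18 each), or 20.2-fold and 27.2-fold lower in lymph node. Ordered by the size of the fall, P2ry14 stood at place 15 and place 6 of 19938 genes, and 4 genes were lower still under both labels. These values chose the gene and are given without a test.

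P2ry6 encodes the receptor for UDP, which couples to Gq. It read 38.6, 50.8 and 36.1 in lymph node labelled Xcr1Cre+, against 318, 506 and 497 in spleen. Lymph node arrays labelled Xcr1++ gave 51.5, 54.2 and 42.5, against 291, 467 and 574 in spleen. Lymph node arrays were below background for Xcr1Cre+, and 1 of 3 was above it for Xcr1++, whereas all spleen arrays were above it. P2ry6 was at least 7.48-fold lower in lymph node labelled Xcr1Cre+ (log2 difference of the values as measured -3.38, SE 0.24, limma, adjusted p = 1.61e-07). This bound sets the spleen mean against the higher of background and measured value on each lymph node array. Under the label Xcr1++, where 2 of 3 lymph node arrays were not above background, the same construction gave 7.60-fold lower in lymph node (log2 difference of the values as measured -3.12, SE 0.24, limma, adjusted p = 3.54e-07).

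P2ry10 is grouped with the P2Y receptors by sequence but is known as a receptor for lysophospholipids such as lysophosphatidylserine. It stayed well above background in both tissues. It read 323, 302 and 274 in lymph node labelled Xcr1Cre+, against 623, 862 and 845 in spleen, a log2 difference of -1.36 (SE 0.20, limma, adjusted p = 0.000127). Under the label Xcr1++ it read 238, 359.6 and 406 in lymph node, against 701, 623 and 732 in spleen, a log2 difference of -1.07 (SE 0.20, limma, adjusted p = 0.000969). The groups did not overlap under either label.

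P2rx7 encodes the ATP-gated channel that needs high ATP and is known for driving the NLRP3 inflammasome. It read 67.5, 74.5 and 72.7 in lymph node labelled Xcr1Cre+, against 378, 534 and 472 in spleen. The corresponding Xcr1++ values were 75.5, 70.9 and 52.8 in lymph node, against 380.0, 454 and 482 in spleen. Lymph node values thus stayed just above background and spleen values were several times higher. The log2 difference was -2.67 for Xcr1Cre+ and -2.73 for Xcr1++ (SE 0.17 each; limma, adjusted p = 5.26e-08 and 4.18e-08).

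P2rx4, the other ATP-gated channel among the members, opens at lower ATP and is found largely on lysosomes. It read 284, 317 and 284 in lymph node labelled Xcr1Cre+, against 807, 832 and 883 in spleen. In lymph node labelled Xcr1++ it read 209, 370.2 and 453, against 729, 832 and 843 in spleen. The 3 lymph node arrays labelled Xcr1++ spread more widely than any other group for this gene, with replicate 1 lowest, and none reached the lowest spleen array. The log2 difference was -1.51 for Xcr1Cre+ and -1.29 for Xcr1++ (SE 0.22 each; limma, adjusted p = 0.000131 and 0.000516).

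Entpd1, the gene of CD39, read 75.4, 94.3 and 66.5 in lymph node labelled Xcr1Cre+, against 794, 1004 and 1161 in spleen. Under the label Xcr1++ it read 63.3, 49.2 and 64.3 in lymph node, against 797, 1125 and 1177 in spleen. All 3 lymph node arrays were above background for Xcr1Cre+ and 2 of 3 for Xcr1++. The log2 difference was -3.64 for Xcr1Cre+ and -4.12 for Xcr1++ (SE 0.20 each; limma, adjusted p = 1.63e-08 and 6.26e-09), or 12.5-fold and 17.4-fold lower in lymph node. With the array below background raised to it, the Xcr1++ difference was 16.9-fold.

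P2ry12, best known from platelets and microglia, and P2ry13 encode ADP receptors, and neither gave a level above background. P2ry13 lay between 21.8 and 31.4 on all arrays, and P2ry12 between 20.9 and 26.3. P2ry13 passed the threshold in lymph node labelled Xcr1Cre+ (limma, adjusted p = 0.0289), but with both groups below background no difference is given.

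Of the 7 members tested, 6 passed as lower in lymph node labelled Xcr1Cre+, P2ry13 included, where 15.2% of all genes did. Under the label Xcr1++ 5 passed, where 13.2% of all genes did. P2ry6, P2ry10, P2rx4, P2rx7 and Entpd1 passed under both labels, where 12.3% of all genes did. No member passed as higher in lymph node, where 13.1% (Xcr1Cre+) and 12.9% (Xcr1++) of all genes did. Among the 12551 genes above background on at least 3 arrays 23.5% and 20.3% passed as lower. The difference between lymph node and spleen did not pass as different between the labels for any of the 8 members (limma interaction, 0% of all genes passed, 0 members at an unadjusted p under 0.05, 1.64% of all genes at that level). The 8 include P2ry12 and P2ry13, below background on all 12 arrays, and P2ry6, below it on 5 of 6 lymph node arrays. For these genes the interaction says little. P2ry14 was chosen by the tissue difference that its interaction compares. For P2rx7 the 95% interval of the interaction ran from -0.45 to 0.57 and for Entpd1 from -0.14 to 1.09 on the log2 scale.

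**Figure D2:**
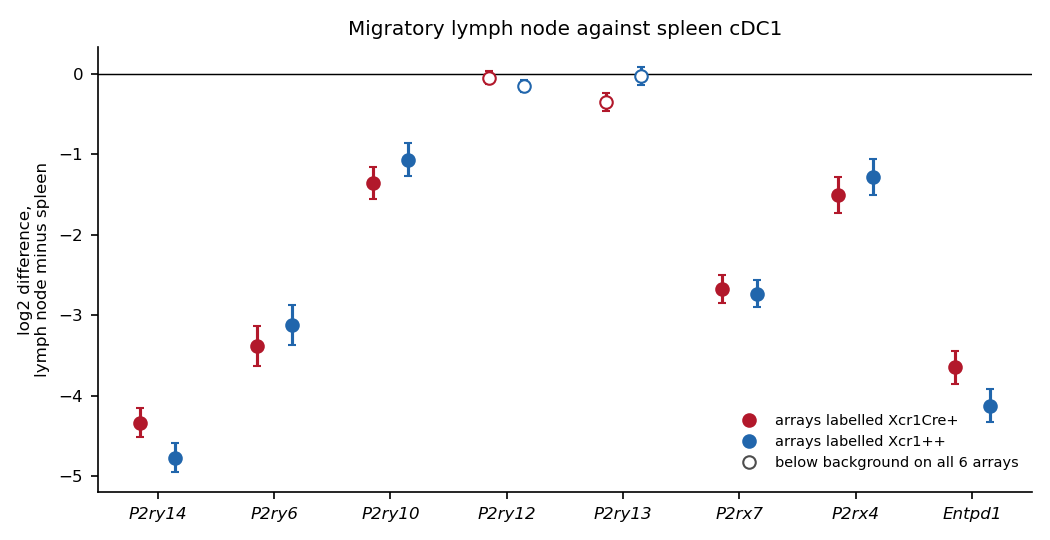
Log2 difference, lymph node minus spleen, for each measured member on arrays labelled Xcr1Cre+ and Xcr1++ (points, limma estimates; bars, 1 SE; open points, below background on all 6 arrays compared). P2ry14, which was chosen for its fall, and Entpd1 lie lowest, between -4.77 and -3.64, and P2ry10 and P2rx4 between -1.51 and -1.07.

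Genes of other cell types moved between the tissues as well. Of 10 macrophage and monocyte markers, 4 (Cd68, Lyz2, Cd14 and Ccr2) were lower and 1 (Vcam1) was higher in lymph node under both labels. Their summed intensity was 1316 to 1467 and 1311 to 1454 in lymph node (labelled Xcr1Cre+ and Xcr1++), against 4199.5 to 5679.8 and 3992 to 5239 in spleen. Adgre1 and Mertk, which define macrophages, lay below background on all 12 arrays, whereas Cd14, Lyz2, Cd68, Vcam1, Csf1r and Cx3cr1 lay above it on all 12. Of 7 B cell markers 1 (Ms4a1) was lower, with sums of 317 to 381 and 297 to 375 in lymph node, against 497 to 559.7 and 448 to 509 in spleen, and Cd79a stayed below background on all arrays, whereas Cd79b and Blk stayed above it. Of 7 stromal and endothelial markers 2 (Pecam1 and Vwf) were lower, with sums of 541 to 579.6 and 508 to 643 in lymph node, against 949 to 1098 and 930.1 to 981 in spleen. None of 5 platelet markers passed in both. Of 6 T cell markers 3 were higher and 1 was lower, and of 6 Langerhans cell and keratinocyte markers 3 were higher and 1 was lower. Of 6 plasmacytoid dendritic cell markers, Spib and Tcf4 were higher and Ccr9 was lower, with sums of 2754 to 3681 and 3033 to 3702 in lymph node, against 2301 to 2999 and 2165 to 2870 in spleen. Of 7 type 2 dendritic cell markers, Irf4 was higher and Cd7 was lower, with sums of 659 to 861 and 609.6 to 820 in lymph node, against 671.5 to 811 and 583 to 817 in spleen. Of 5 mast cell and basophil markers, Kit was lower, with averages of 486 and 448 in lymph node, against 3007 and 3141 in spleen, while Cpa3, Ms4a2, Fcer1a and Mcpt4 were below background on all 12 arrays. None of the neutrophil, NK cell or erythroid markers passed in both. The part of such cells in the members' differences was not tested.

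Replicate 1 also stood apart for some members in some groups. In spleen, P2ry6 on the replicate 1 array was 0.635 (Xcr1Cre+) and 0.563 (Xcr1++) times the geometric mean of replicates 2 and 3. Entpd1 was at 0.735 and 0.693 times, and P2rx7 at 0.753 and 0.812 times. In lymph node labelled Xcr1++, P2rx4 and P2ry10 on the replicate 1 array were at 0.512 and 0.623 times the other arrays, and P2ry14 was at 1.53 times in lymph node labelled Xcr1Cre+. Replicate 1 was the lowest of its group for 1 of 8 members (Xcr1Cre+) and 3 of 8 (Xcr1++) in lymph node, against 6 of 8 and 5 of 8 in spleen. These 8 include P2ry12 and P2ry13, which lay below background, and the share over all genes was not computed. The part of replicate 1 in the results was measured by leaving it out: without replicate 1 the members passing as lower still numbered 6 and 5.

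Promoter sequences (RefSeq, GRCm38.p6; 250 bases before to 50 after a start) were on hand for 7 of the 8 measured members, as 13 windows. They are shown for the 3 receptor genes whose windows held the AP-1 motif TGANTCA (N, any base), a palindrome read once for both strands. No window of P2rx4 or Entpd1, which were also lower in lymph node, held it, nor did those of P2ry12 and P2ry13. AP-1 letters were in 4 of the 13 windows, 2 of them of P2ry14 and 1 each of P2rx7 and P2ry10, and in 7.81% of 32851 windows of all genes. Capitals mark the match, each sequence is written in the gene's own direction, and no match overlapped another motif searched.
P2ry14, chr3:59153443-59153742, minus strand: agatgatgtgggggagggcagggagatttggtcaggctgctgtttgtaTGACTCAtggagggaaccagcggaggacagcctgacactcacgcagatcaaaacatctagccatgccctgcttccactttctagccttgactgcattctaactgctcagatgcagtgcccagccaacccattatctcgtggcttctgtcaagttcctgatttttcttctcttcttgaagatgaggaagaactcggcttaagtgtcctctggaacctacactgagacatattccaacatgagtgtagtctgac
P2ry14, chr3:59131279-59131578, minus strand: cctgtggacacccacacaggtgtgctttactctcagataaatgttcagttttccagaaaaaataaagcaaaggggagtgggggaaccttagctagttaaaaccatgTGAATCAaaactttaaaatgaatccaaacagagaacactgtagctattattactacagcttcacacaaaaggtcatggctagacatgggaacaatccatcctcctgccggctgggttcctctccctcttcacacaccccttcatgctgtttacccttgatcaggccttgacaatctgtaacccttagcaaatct
P2rx7, chr5:122643677-122643976, plus strand: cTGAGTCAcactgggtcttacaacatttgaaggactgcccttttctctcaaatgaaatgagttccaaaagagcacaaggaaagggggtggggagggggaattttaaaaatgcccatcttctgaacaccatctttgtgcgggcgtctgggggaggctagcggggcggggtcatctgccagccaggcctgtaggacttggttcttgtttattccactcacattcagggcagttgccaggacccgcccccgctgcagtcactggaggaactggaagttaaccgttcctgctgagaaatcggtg
P2ry10, chrX:107088242-107088541, plus strand: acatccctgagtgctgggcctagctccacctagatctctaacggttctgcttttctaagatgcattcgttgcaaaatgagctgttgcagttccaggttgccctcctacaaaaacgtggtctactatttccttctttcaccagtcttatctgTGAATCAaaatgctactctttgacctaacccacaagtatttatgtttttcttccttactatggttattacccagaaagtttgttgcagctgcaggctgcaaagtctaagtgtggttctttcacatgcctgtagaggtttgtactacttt

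The PU.1 motif GAGGAAGT, searched on both strands, was in 2 windows, 1 of P2rx7 and 1 of P2ry10, and in 3.20% of all windows. The composite ETS-IRF motif (GGAA, any 2 bases, then GAAA), the interferon-stimulated response element (GAAA, any 2 bases, then GAAA) and the NF-kB motif (GGGA, any base, then TTTCC) were in none of the 13 windows and in 2.72%, 3.44% and 0.411% of all windows. A match describes letters in a window and not a bound site.

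P2ry14 sits on chromosome 3 in a run of related receptor genes. The neighbours that read above background, Gpr171 and F630111L10Rik, were also lower in lymph node than in spleen. The nearest measured gene before it in RefSeq order was Gpr171, which encodes a related G protein-coupled receptor. Gpr171 read 321, 181 and 212 in lymph node labelled Xcr1Cre+, against 3484, 4136 and 4038 in spleen. In lymph node labelled Xcr1++ it read 248, 240.3 and 148, against 3894, 4358 and 4610 in spleen. Its log2 difference was -4.07 and -4.37 (SE 0.23 each; limma, adjusted p = 1.85e-08 and 1.09e-08), with no overlap of the groups. The next gene after P2ry14, F630111L10Rik, overlaps it in RefSeq, and signal from overlapping genes may not be kept apart. It differed by -2.92 and -3.00 (SE 0.32 each; limma, adjusted p = 9.38e-06 and 7.69e-06). P2ry13, P2ry12 and Igsf10, further along, and Med12l, which overlaps P2ry14, were below background on all 12 arrays. Whether these genes differ between the tissues cannot be told.

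**Figure D3:**
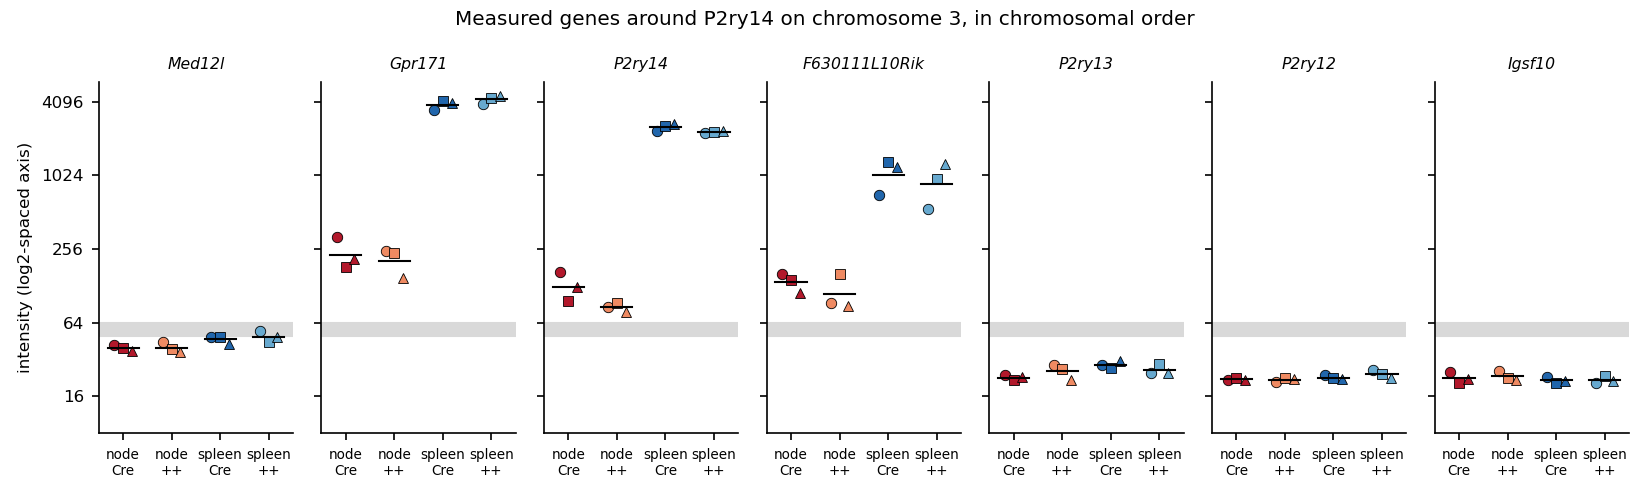
Intensity (log2-spaced vertical axis) on each array of the measured genes around P2ry14, from left to right in chromosomal order and not to scale; groups, symbols (circles, squares and triangles for replicates 1, 2 and 3), lines and grey band as in the plot of members by array. Gpr171, P2ry14 and F630111L10Rik are lower in lymph node than in spleen, and Med12l, P2ry13, P2ry12 and Igsf10 lie below or at the grey band in every group.

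P2rx7 and P2rx4 are next to each other on chromosome 5, and both were lower. Camkk2, which overlaps P2rx4 and encodes a calcium-dependent kinase, differed the other way, by 0.72 and 0.87 (SE 0.17 each; limma, adjusted p = 0.00427 and 0.00111). Beyond them Atp2a2, the calcium pump of the endoplasmic reticulum, was lower, with a difference of -2.08 and -2.14 (limma, adjusted p = 2.31e-06 and 1.85e-06). P2ry2, next to P2ry6, and Lpar4 and P2ry10b, next to P2ry10, were below background on all arrays, although P2ry10b passed as lower. Relt, also near P2ry6, was higher by 2.28 and 2.41 (SE 0.26 each, limma, adjusted p = 1.20e-05 and 7.69e-06). The nearest places to the members held 21 measured genes that are not members themselves. Of these, 7 passed as lower in both, 3 as higher and 11 as neither, where 12.3% of all genes were lower and 10.4% higher.

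The 5 genes whose log2 values were nearest to those of P2ry14 over the 12 arrays, after centring each gene on its own mean, were Serpinb8, Cyth4, Gpr171, Cd244a and Cd36. Their root mean square differences from P2ry14 were 0.25, 0.27, 0.28, 0.28 and 0.30 on the log2 scale. Serpinb8 encodes a serine protease inhibitor, Cyth4 an exchange factor for ARF GTPases, Cd244a the SLAM family receptor 2B4, and Cd36 a scavenger receptor for lipids. Cd36 averaged 88.2 ± 13.9 in lymph node labelled Xcr1Cre+ and 1843 ± 269 in spleen (SD, n = 3 each), with 92.1 ± 10.05 and 1774 ± 248 under the label Xcr1++. Serpinb8 was below background on all lymph node arrays and at least 15.6-fold (Xcr1Cre+) and 13.7-fold (Xcr1++) lower there, so that its distance is that of values at background and its place is not exact. Entpd1 was at place 25, P2rx7 at 161, P2rx4 at 802 and P2ry10 at 971 of 19937 genes. The arrays share the tissue split, and 918 genes had a correlation of at least 0.95 with P2ry14.

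Around the members, 101 other measured genes of 9 lists cover the same signalling. Of these, 31 were lower in lymph node under both labels, 8 were higher and 62 were neither, where 12.3% of all genes were lower and 10.4% higher in both. The other receptors on the P2Y list were few: P2ry1, an ADP receptor, was higher by 0.63 and 0.51 (SE 0.12 each; limma, adjusted p = 0.00131 and 0.00631), with averages of 92.9 and 87.2 in lymph node against 60.0 and 60.7 in spleen. None of the 5 other P2X channels passed in both. P2rx5 differed by 0.64 for Xcr1Cre+, which passed, and by 0.50 for Xcr1++, which did not (SE 0.19 each; limma, adjusted p = 0.0195 and 0.0699). Without the members, the medians were 0.23 and 0.13 for the 4 other P2Y receptors, of which P2ry2 and P2ry10b were below background on all arrays, and 0.20 and 0.10 for the 5 other P2X channels, of which P2rx5 alone was above it, against 0.07 and 0.03 over all genes.

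Enzymes that split nucleotides at the surface or in the secretory pathway differed in both directions. Of 13 such genes apart from Entpd1, 5 were lower and 2 higher in both, where 12.3% and 10.4% of all genes were. Enpp5, a member of the pyrophosphatase family, was at least 2.40-fold (Xcr1Cre+) and 2.36-fold (Xcr1++) lower in lymph node, where it was below background. Enpp4 was lower, with a difference of -1.12 and -0.77 (SE 0.22 each; limma, adjusted p = 0.00131 and 0.0174). Entpd4, a Golgi UDPase, was higher by 1.10 and 1.34 (SE 0.22 each; limma, adjusted p = 0.00176 and 0.000379). Nt5e, the gene of CD73 that follows CD39 in making adenosine, read 76.6 ± 20.7 and 73.2 ± 10.9 in lymph node, against 66.2 ± 5.48 and 68.8 ± 3.99 in spleen (labelled Xcr1Cre+ and Xcr1++, SD, n = 3 each). Nt5e was not called under either label.

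Genes that handle adenosine and its release gave 4 lower and 1 higher of 11. Over all genes, 12.3% were lower and 10.4% higher in both. Dpp4 was lower, with a difference of -1.39 and -1.22 (SE 0.38 each, limma, adjusted p = 0.0129 and 0.0281). Adk, which phosphorylates adenosine, was lower, with a difference of -1.45 and -1.11 (SE 0.22 each; limma, adjusted p = 0.000175 and 0.00157). The surface transporter Slc29a1 was lower, with a difference of -1.08 and -0.91 and the lysosomal transporter Slc29a3 was higher by 0.63 and 0.71. Of 8 nucleotide release channels, the volume-regulated channel subunit Lrrc8d was lower, with a difference of -1.36 and -1.72 (limma, adjusted p = 0.00079 and 0.000111) and Lrrc8c was higher by 0.72 and 0.61. The ATP release channel Panx1 was not called, at 118 (Xcr1Cre+) and 111 (Xcr1++) in lymph node, against 129.6 and 113 in spleen.

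Genes of UDP-sugar synthesis and transport, only some of which make ligands of P2ry14, gave 3 lower and 2 higher of 14. Over all genes, 12.3% were lower and 10.4% higher in both. The lower genes were Uap1l1, Slc35d2 and Ugcg, and the higher ones Uap1 and Gfpt1. Uap1, which makes UDP-N-acetylglucosamine, was higher by 1.62 and 1.67 (SE 0.20 each; limma, adjusted p = 3.21e-05 and 2.52e-05), while its relative Uap1l1 was lower, with a difference of -1.84 and -1.71 (SE 0.16 each; limma, adjusted p = 7.65e-07 and 1.51e-06). Gfpt1, the first enzyme of the hexosamine pathway, was higher by 0.77 and 0.95. Slc35d2, a nucleotide sugar transporter of the Golgi, was lower, with a difference of -1.21 and -0.96. Ugp2 and Ugdh, which make UDP-glucose and UDP-glucuronic acid, were not called.

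Some downstream genes also differed, where 12.3% of all genes were lower and 10.4% higher in both. Of 12 G protein alpha subunits, Gna15, Gnaq and Gna13 were lower in both and none was higher. The list medians were -0.04 and 0.00, against 0.07 and 0.03 over all genes. Gna15, whose product couples to many receptors, was lower, with a difference of -2.23 and -1.96 (SE 0.21 each; limma, adjusted p = 2.58e-06 and 9.01e-06), and Gnai2, the Gi subunit abundant in leukocytes, was not called (-0.14 and 0.00). Of 20 cyclic AMP genes, with list medians of 0.06 and 0.02, 5 were lower and 1 was higher. The exception, the adenylyl cyclase gene Adcy6, read 1972, 4805 and 3757 in lymph node labelled Xcr1Cre+, against 204, 206 and 282 in spleen. In lymph node labelled Xcr1++ it read 2214, 4492 and 5053, against 189, 308 and 308 in spleen. Its log2 difference was 3.85 and 3.82 (SE 0.35 each, limma, adjusted p = 1.46e-06 and 1.64e-06). The cyclase Adcy7 (-1.48 and -1.47), the phosphodiesterase Pde3b (-2.16 and -2.04) and the protein kinase A subunit Prkar2b (-1.96 and -1.65) were lower.

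Among 14 related lipid and orphan receptors, 9 were lower in both, Gpr171 included, and none was higher. Over all genes, 12.3% were lower and 10.4% higher in both. The list medians were -1.64 and -1.58, against 0.07 and 0.03 over all genes. Of the 14 receptors, 4 lay below background on all 12 arrays. Beside Gpr171, the lysophosphatidic acid receptor Lpar6 differed by -2.73 and -2.98, the platelet-activating factor receptor Ptafr by -2.26 and -2.51, and the proton-sensing receptor Gpr65 by -2.23 and -2.36 (limma, adjusted p from 9.51e-07 down to 4.18e-08). Lists and members were chosen with results known, and no list was tested as a whole.

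**Figure D4:**
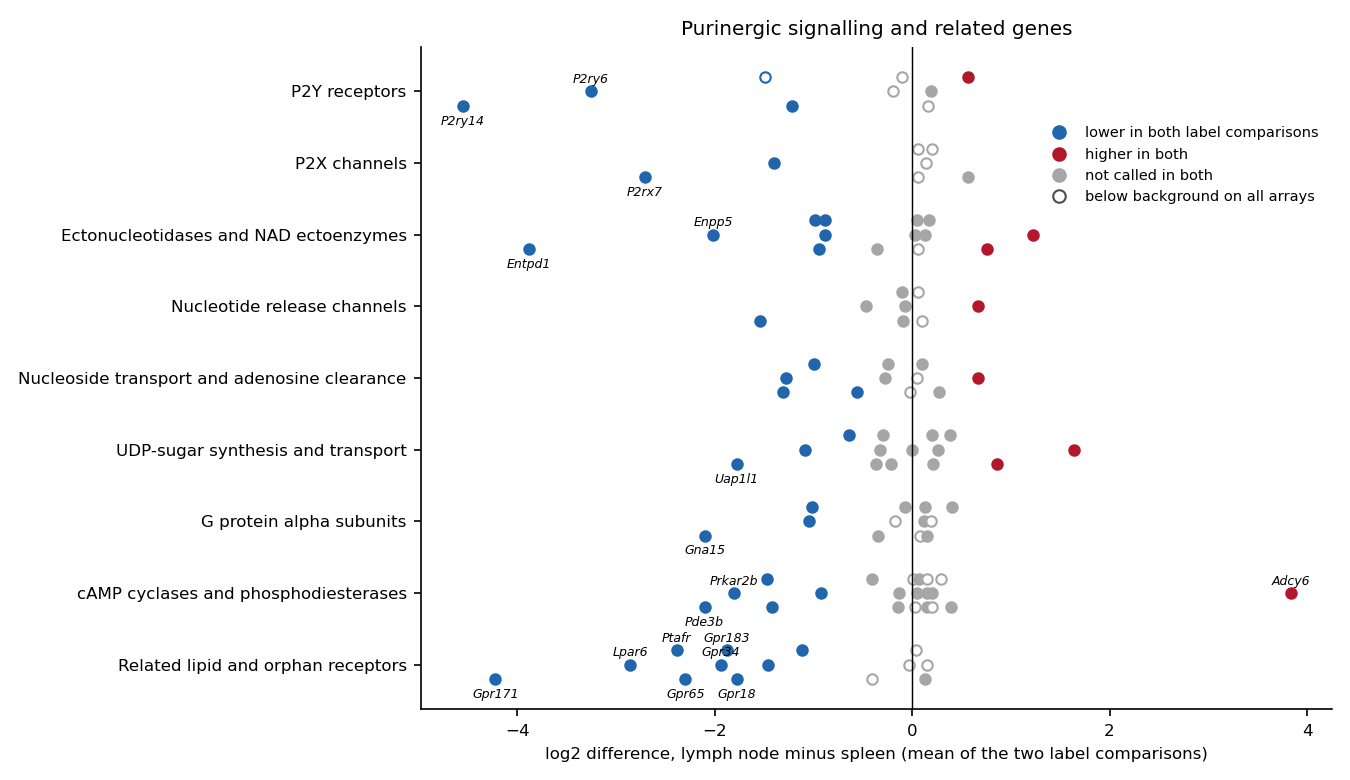
Log2 difference, lymph node minus spleen, averaged over the 2 label comparisons (horizontal axis), of each measured gene of 9 lists (rows; points are spread vertically for legibility). Colour shows genes called lower, higher or neither in both comparisons, and open points lie below background on all arrays. The called genes with the largest differences are named. P2ry14, which was chosen for its fall, is the point farthest left and Adcy6 the point farthest right.

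Between the labels, Xcr1Cre+ against Xcr1++, no member passed in either tissue (limma, 0% of all genes passed in each). At an unadjusted p under 0.05, 0 members and 1.79% of all genes passed in spleen, and 1 member (P2ry14) and 2.02% of all genes passed in lymph node. Intervals of the label difference in spleen ran from -0.25 to 0.52 for P2ry14, from -0.51 to 0.53 for P2ry6, from -0.26 to 0.60 for P2ry10, from -0.41 to 0.55 for P2rx4, from -0.30 to 0.43 for P2rx7 and from -0.50 to 0.37 for Entpd1, on the log2 scale (95%).

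In lymph node, P2ry14 read 168, 96.4 and 125 on arrays labelled Xcr1Cre+ and 85.7, 92.2 and 78.9 on arrays labelled Xcr1++. The groups did not overlap, as for 2.01% of all genes with a higher Xcr1Cre+ group, and arrays of the same number stood at ratios of 1.95, 1.05 and 1.59. The log2 difference was 0.57 (SE 0.18, 95% interval 0.18 to 0.95; limma, unadjusted p = 0.00741, adjusted p = 0.9997), and with the replicate number as a block the interval was 0.23 to 0.90 and the adjusted p was 0.664. Cd40, which checks the labels, ran against them in replicate 3, and without replicate 3 the P2ry14 difference was 0.52 (unadjusted p = 0.101). Without replicate 1 it was 0.37 and without replicate 2 it was 0.82. In spleen the ratios of P2ry14 were 1.03, 1.14 and 1.13.

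Entpd1 in lymph node read 75.4, 94.3 and 66.5 on arrays labelled Xcr1Cre+ and 63.3, 49.2 and 64.3 on arrays labelled Xcr1++, with ratios of 1.19, 1.92 and 1.03. The groups did not overlap. The log2 difference was 0.41 (SE 0.20, 95% interval -0.02 to 0.85; limma, unadjusted p = 0.0607, adjusted p = 0.9997), and with the replicate number as a block the interval was 0.04 to 0.79, which leaves out 0 (unadjusted p = 0.0343, adjusted p = 0.727). The Xcr1++ array numbered 2, at 49.2, lay below its background of 53.6, and without replicate 2 the difference was 0.15. The other members in lymph node had differences of -0.15 (P2rx4), -0.12 (P2ry10) and 0.12 (P2rx7), and their groups overlapped. P2ry6 was below background on 5 of the 6 lymph node arrays, and no difference is given for it there.

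**Figure D5:**
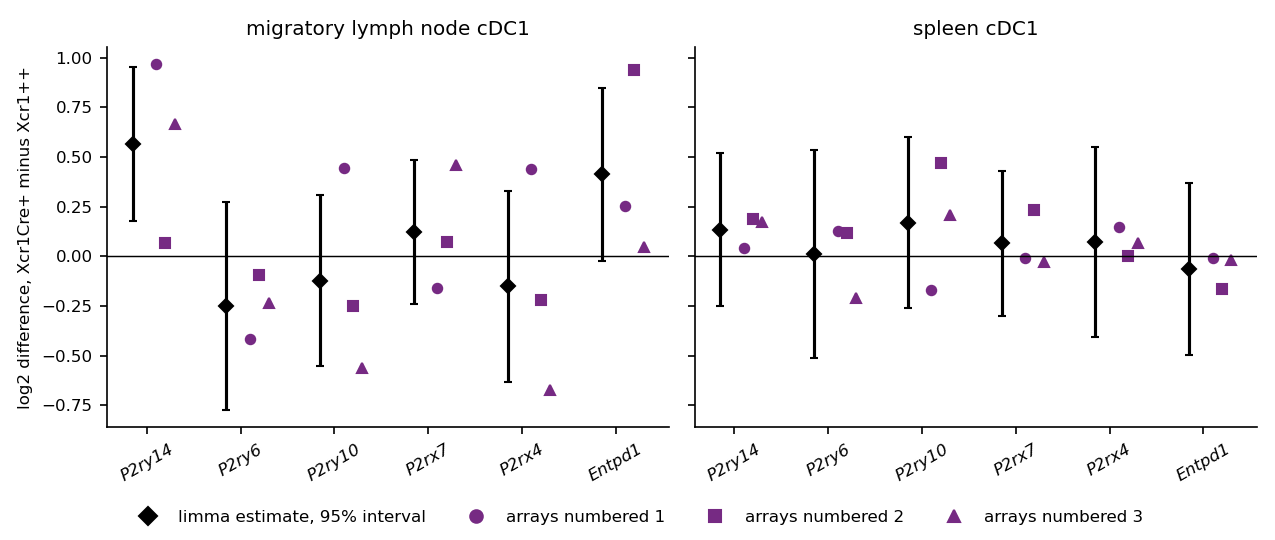
Log2 difference, Xcr1Cre+ minus Xcr1++, of the 6 members above background in spleen, in lymph node (left) and spleen (right); diamonds and bars are limma estimates with 95% intervals, and coloured symbols are the differences between arrays of the same number. In lymph node P2ry14 and Entpd1 lie above 0 on all 3 numbers, and P2ry6 is below background on 5 of 6 arrays; of these intervals, from the fit without the replicate block, that of P2ry14 in lymph node alone leaves out 0.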

How the data were processed

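The authors deposited 1 intensity per probe set and array, and per the submitters' processing notes RMA was run with Affymetrix Expression Console; the genome build is not given in the sources used here. RMA summarises many probes into 1 value, which compresses low intensities towards background. Log2 was taken of the deposited intensities before any test, so log2 differences were computed here and not by the authors. Of 28853 probe sets, 21789 had a single symbol, and the brightest was kept for each of 19938 genes (999 had more than 1). Genes were fitted in limma 3.58.1 (R 4.3.3, Python 3.11.15, matplotlib 3.10.9) with 4 group means and a variance trend in eBayes, two-sided and adjusted by Benjamini-Hochberg over all genes within each of 5 comparisons, and called at an adjusted p under 0.05. The number of arrays limits the precision.

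Members and lists were chosen with earlier results of these data known. Named genes were drawn from the members and from up to 4 called genes per list by mean absolute tissue difference. Others came from the 2 nearest measured genes on either side of each member and the 5 genes most like P2ry14. Not every such gene is named, and some genes not called and some cell type markers are named beside them.

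Every group has arrays 1, 2 and 3 by its titles. Deviations from group means correlated between arrays numbered 1 at 0.597 to 0.774, over 12551 genes. The range was 0.367 to 0.491 between those numbered 2 and 0.303 to 0.504 between those numbered 3. Arrays numbered 2 correlated with arrays numbered 3 of other groups at 0.224 to 0.603, about as much. These values set replicate 1 apart but do not show that numbers 2 and 3 pair the arrays. Comparisons of arrays of the same number, and the replicate block, are given under that limit. Alternatives were the replicate block, quantile normalization, centring, a pseudocount of 16, a filter on dim probe sets, the mean of probe sets, no trend, array weights, leaving out arrays or a replicate number, and a Y-linked background. The positions of the arrays' probes were not used here.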

Additional observations from a re-analysis of the deposited data

Results flagged for a closer look

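Entpd1 in lymph node was 0.41 higher (log2) on arrays labelled Xcr1Cre+ than on arrays labelled Xcr1++, and it was singled out because every array of a number was higher there (3 of 3), while in spleen every array of a number was lower (3 of 3, ratios 0.995, 0.892 and 0.986). The opposite directions over the numbers were not tested as such. The limma interaction, 0.48 (SE 0.29), did not pass (unadjusted p = 0.118, adjusted p = 0.9996). The spleen differences are within the spread between replicates, and lymph node Entpd1 lay close to background.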

How the results depend on the processing

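The number of arrays and the closeness of lymph node values to background limit these results. In 46 recomputations of the tissue comparisons, 5 members passed as lower under the label Xcr1++ and 5 or 6 under Xcr1Cre+. In 69 recomputations of the label comparisons and the interaction, 0 members passed. With the replicate block, 8170 (Xcr1Cre+) and 7178 (Xcr1++) of all genes passed between tissues, against 5648 and 5207 without it, and the block changed no member's call. Array weights gave 8933 and 9020, and 51, 2 and 3 genes for the spleen, lymph node and interaction comparisons of labels, against 0. Leaving out arrays or a replicate number gave 3081 to 7684 (Xcr1Cre+) and 2865 to 6906 (Xcr1++). The lowest, 3081 and 3093, came without replicate 2, and 3094 and 2865 without replicate 3. With a pseudocount of 16 the P2ry14 tissue difference for Xcr1++ was -4.53. Members above background on all arrays numbered 5 and 4 in lymph node (Xcr1Cre+ and Xcr1++) and 6 and 6 in spleen, against 6, 6, 8 and 8 with the Y-linked background.

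Signs turned for small label differences, none of which passed, and the cause was not tested. P2ry6 in spleen was -0.038 with quantile normalization, and the P2rx7 interaction was -0.016 with array weights. Leaving out arrays or a replicate number moved the spleen difference from -0.27 to 0.23 for P2ry6, from -0.048 to 0.20 for P2rx7 and from -0.24 to 0.084 for Entpd1. It moved the lymph node difference from -0.41 to 0.10 for P2ry10, from -0.47 to 0.11 for P2rx4 and from -0.045 to 0.27 for P2rx7. It moved the interaction from -0.48 to 0.017 for P2ry6, from -0.55 to 0.036 for P2rx4 and from -0.16 to 0.17 for P2rx7. Over those settings the lymph node difference of P2ry14 ran from 0.36 to 0.82 and that of Entpd1 from 0.15 to 0.60.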
